A study of Rattus norvegicus with 18 samples.

Results

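The unfolded protein response and the heat shock response were examined in cultured rat glia through 38 genes, taken by symbol from the count tables of 17307 genes in astrocytes and 17327 genes in microglia. The genes were chosen for their known roles and not for their values, though with earlier results of these data known. All 38 were listed in every library, and 37 passed the filter on low counts in both cell types. The exception was Hspa1b, an inducible Hsp70. RNA was sequenced from primary astrocytes and microglia of wild-type Sprague–Dawley rats, in 6 groups of 3 libraries. The cells came from the cortex of pups of postnatal day 2, were separated from mixed glial cultures by shaking, and stood in serum-free medium before treatment. They were then left untreated (control), or received Aβ42 or Aβ40 fibrils at 25 µM, and all groups were collected after 24 h. The fibrils are aggregates of the longer and the shorter main form of the amyloid-β peptide. No source used here says whether the replicates came from separate litters or cultures, so the p-values measure the spread between these libraries, which may be technical.

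Proteins that enter the endoplasmic reticulum (ER) are folded there by chaperones and disulfide isomerases, and those that fail are sent back to the cytosol for degradation. When unfolded proteins build up, the sensors IRE1 (gene Ern1), PERK (Eif2ak3) and ATF6 signal to the nucleus, through XBP1, ATF4 and the cleaved ATF6 itself, and raise the genes of folding and degradation. PERK shares the ATF4 branch with kinases that sense viral RNA, amino acid shortage and heme shortage, and that shared branch is called the integrated stress response. The heat shock response is separate. It is driven by the heat shock factors and raises chaperones of the cytosol such as Hsp70, Hsp90 and the small heat shock proteins.

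The libraries held between 3674043 and 19013919 counts on genes in astrocytes and between 2271834 and 22274367 in microglia. Levels are given as scaled CPM, the count of a gene relative to the TMM-scaled size of its library within a cell type, and differences as log2 fold changes with the standard error (SE) of the fit. A gene was called higher or lower at an adjusted p-value under 0.05 in edgeR's quasi-likelihood test, at any fold. The markers of each labelled cell type were high in its own libraries. The 8 astrocyte markers summed to between 8578 and 10510 scaled CPM in control astrocytes and between 239 and 269 in control microglia, and the 10 microglia markers to between 7743 and 8749 in control microglia and between 368 and 389 in control astrocytes. Oligodendrocyte lineage markers summed to between 1272 and 2833 in all 6 groups. A pair of libraries stood apart. Microglia Aβ42 replicate 1, the smallest of its group with 2613723 counts, had a mean correlation of 0.964 with its own group across genes and of 0.983 with the Aβ40 libraries. Astrocyte control replicate 2 had a mean correlation of 0.950 with its own group, against 0.967 and 0.969 for the other control libraries. Calls against control that were added or lost without them are given beside the results. In such bulk samples, fewer cells of a type and less RNA per cell cannot be told apart.

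The promoters of the genes with the largest changes are shown first, because members that moved together can be compared by the letters in front of them. RefSeq (assembly GRCr8) gave a promoter, 250 bases before to 50 bases after the start, for 30 of the 38 genes. The members without an entry were Ern1, Atf6, Pdia3, Pdia6, Manf, Hspa1b, Cryab and Hsp90aa1. The windows below belong to members that were called in the same direction with both fibrils in a cell type, in order of the smaller of the changes with the 2 fibrils. Capitals mark TTACATCA, the reverse of the C/EBP-ATF response element TGATGNAA through which ATF4 acts, and TGACGTCA, the cAMP response element bound by ATF and CREB factors, which was searched for after its letters had been seen in the Ppp1r15a window. The element TGATGNAA was found in either strand of 3.98% of all 33469 promoters and TGACGTCA in 1.83%. The windows of Ddit3, Hspb1 and Edem1 held none of the letters searched.
Trib3, chr3:161275534-161275633, minus strand: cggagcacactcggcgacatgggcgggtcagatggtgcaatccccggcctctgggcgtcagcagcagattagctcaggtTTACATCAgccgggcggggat
Ppp1r15a, chr1:105139597-105139696, minus strand: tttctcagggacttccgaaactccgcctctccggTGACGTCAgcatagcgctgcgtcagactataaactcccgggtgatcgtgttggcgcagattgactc
Ddit3, chr7:65001585-65001694, plus strand: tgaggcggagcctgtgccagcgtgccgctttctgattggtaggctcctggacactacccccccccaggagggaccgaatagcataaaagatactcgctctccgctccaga
Hspb1, chr12:26432302-26432411, minus strand: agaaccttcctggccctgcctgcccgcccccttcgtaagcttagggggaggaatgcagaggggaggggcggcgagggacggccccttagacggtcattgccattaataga
Edem1, chr4:143353565-143353674, plus strand: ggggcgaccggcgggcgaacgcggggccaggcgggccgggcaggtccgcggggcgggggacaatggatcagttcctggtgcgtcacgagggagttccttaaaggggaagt

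The letters through which ATF6 and XBP1 act were found in front of the ER genes. The ER stress response element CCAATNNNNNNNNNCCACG was held by 0.0657% of all promoters and by 7 of the 30 members with an entry, which were Hspa5, Hsp90b1, Calr, Canx, Creld2, Dnajc3 and Xbp1. Its second form, ATTGG and CCACG with any base between them, was held by 0.0508% of all promoters and by Herpud1, Hyou1 and Dnajb11. The C/EBP-ATF response element stood before Trib3, Chac1 and Herpud1. The core TGACGTGG, held by 0.595% of promoters, stood before Hyou1 and Bag3, and overlapped 1 of the 2 copies of the second form in Hyou1. The heat shock element GAANNTTCNNGAA, held by 0.798%, stood before Hsph1 and Hspa8. Windows with the match in capitals and 8 bases on either side are given for members that are set against each other in the results, and were chosen for their letters.
Hspa5, ER stress response element, chr3:38452965-38452999, plus strand: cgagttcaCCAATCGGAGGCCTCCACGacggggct
Hsp90b1, ER stress response element, chr7:23012443-23012477, minus strand: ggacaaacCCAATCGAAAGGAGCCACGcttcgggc
Dnajc3, ER stress response element, chr15:102432526-102432560, plus strand: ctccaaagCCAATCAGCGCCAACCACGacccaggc
Xbp1, ER stress response element, chr14:84604550-84604584, plus strand: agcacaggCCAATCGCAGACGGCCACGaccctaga
Herpud1, ER stress response element II, chr19:10614813-10614839, minus strand: gggcgctgATTGGGCCACGttgggcac
Herpud1, C/EBP-ATF response element in reverse, chr19:10614876-10614899, minus strand: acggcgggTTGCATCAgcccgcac
Chac1, C/EBP-ATF response element in reverse, chr3:126795956-126795979, plus strand: ctccgccgTTGCATCActcctgct
Hsph1, heat shock element in reverse, chr12:10427324-10427352, plus strand: gccgcagaTTCTGGAAAGTTCtcctcagt
A match describes the letters only, and the absence of one says that these letters are not in this window.

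In astrocytes, Atf4, Ddit3, Trib3, Chac1 and Ppp1r15a of the ATF4 branch rose with both fibrils, most ER chaperones did not pass the test, and a pair of small heat shock proteins fell. With Aβ42 fibrils, 10 of the 37 tested members were higher and 2 were lower, where 16.5% of all 11690 tested genes were called higher and 20.4% lower. With Aβ40 fibrils, 9 were higher and 3 lower, against 14.9% and 18.4% of all genes. Both comparisons use the same control libraries. The median log2 fold change of the members was 0.12 with Aβ42 and 0.10 with Aβ40 fibrils, and that of all genes was 0.00 in both. In the same libraries the astrocyte markers summed to between 5586 and 5822 scaled CPM with Aβ42 and between 6193 and 6517 with Aβ40, below the control range of 8578 to 10510. Single astrocyte markers went both ways, Gfap, Slc1a3 and S100b lower with both fibrils and Slc1a2 (1.51 and 1.41 on the log2 scale) and Aldh1l1 (1.65 and 1.44) higher. The microglia markers summed to between 163 and 176 and between 140 and 154, below 368 to 389 in the control libraries. The part of these shifts in the results was not tested. Leaving out control replicate 2 raised the members called higher to 14 with Aβ42 and 13 with Aβ40 fibrils, where 22.1% and 19.6% of all genes were then called higher. Leaving out Aβ40 replicate 2 or 3 lowered the latter count to 5, where 12.3% and 11.2% of all genes were called higher.

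**Figure D1:**
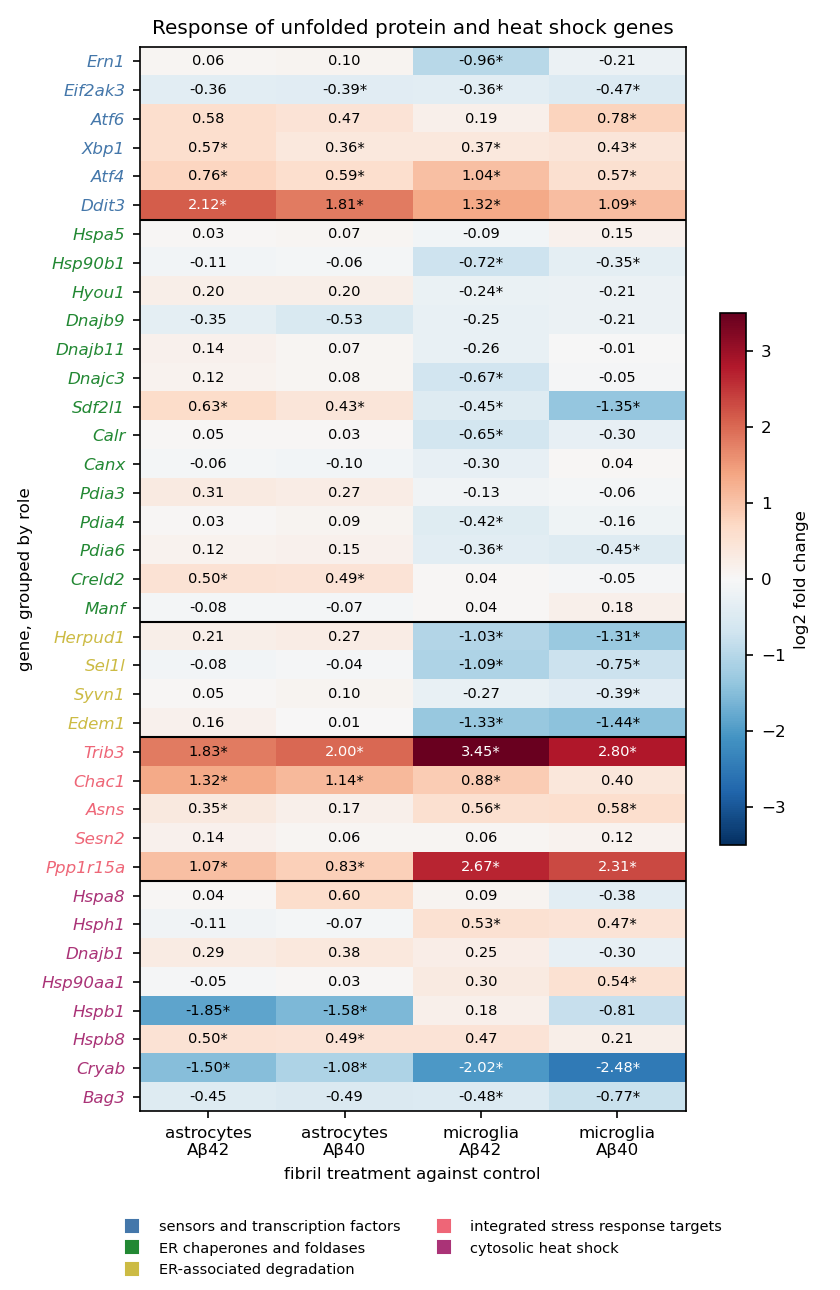
Log2 fold change of the 37 tested members (rows, grouped by role and colored by it) for each fibril against control in each cell type (columns), with red higher and blue lower than control. Asterisks mark an adjusted p-value under 0.05 in edgeR's quasi-likelihood test. Trib3, Ppp1r15a and Ddit3 are red in all 4 columns, and Edem1, Herpud1 and Sel1l are bluer in the microglia columns than in the astrocyte columns. Cryab in microglia is the darkest blue.

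Among the sensors and transcription factors, Ddit3, which codes for CHOP, the transcription factor of prolonged ER stress, had the largest rise in astrocytes. Its level was 29.5, 26.8 and 29.1 scaled CPM in the control libraries, 116, 133 and 122 with Aβ42 fibrils and 94.5, 95.0 and 110 with Aβ40 fibrils. All 6 treated libraries stood above all control libraries, and the Aβ40 libraries lay below the Aβ42 libraries. The log2 fold change was 2.12 ± 0.13 (SE, adjusted p = 3.96e-07 by edgeR) with Aβ42 and 1.81 ± 0.13 (adjusted p = 1.36e-06) with Aβ40 fibrils. Atf4, the central factor of the integrated stress response, was at 265, 178 and 231 scaled CPM in control libraries, 381, 394 and 365 with Aβ42 and 325, 329 and 361 with Aβ40 fibrils. It rose by 0.76 ± 0.14 and 0.59 ± 0.14 on the log2 scale, with no overlap between treated and control libraries. Xbp1, whose mRNA is spliced by IRE1 to give the active factor, rose by 0.57 ± 0.12 (adjusted p = 0.00369 by edgeR) and 0.36 ± 0.12 (adjusted p = 0.0432), and these counts do not separate its spliced form. Leaving out any 1 of the Aβ40 libraries or control replicate 1 or 3 ended the Xbp1 call with Aβ40 fibrils, at adjusted p-values up to 0.136.

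Of the 3 sensors in astrocytes, Ern1 stayed between 7.24 and 9.67 scaled CPM in all 9 libraries, with log2 fold changes of 0.06 and 0.10. Eif2ak3 was lower with Aβ40 fibrils by -0.39 ± 0.14 (adjusted p = 0.0479 by edgeR), while its -0.36 ± 0.14 with Aβ42 fibrils did not pass (adjusted p = 0.0628). The Aβ40 call ended without any 1 of 5 of the 6 libraries, all but control replicate 3, at adjusted p-values up to 0.168. Atf6 had 0.58 ± 0.24 and 0.47 ± 0.24 and passed with neither fibril, but without control replicate 2 it was higher with both, by 0.77 ± 0.21 (adjusted p = 0.0104 by edgeR) and 0.66 ± 0.21 (adjusted p = 0.0245). Its control libraries were spread from 27.3 to 60.8 scaled CPM, wider than the 67.0 to 72.4 of the Aβ42 libraries.

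Most of the 5 members that are targets of ATF4 and CHOP rose in astrocytes. With Aβ42 fibrils 4 of the 5 integrated stress response targets were higher and with Aβ40 fibrils 3 were, against 16.5% and 14.9% of all genes. Their medians were 1.07 and 0.83. Trib3, a pseudokinase that restrains ATF4 and CHOP, was near the detection limit in control astrocytes, with 6, 1 and 10 counts (1.67, 0.239 and 0.703 scaled CPM). It reached 38, 31 and 23 counts (2.61, 3.13 and 2.76 scaled CPM) with Aβ42 fibrils and 21, 61 and 59 counts (2.18, 3.26 and 3.92 scaled CPM) with Aβ40 fibrils. Every treated library was above every control library, at levels of a few CPM. The fitted changes were 1.83 ± 0.43 and 2.00 ± 0.42, and the former missed the threshold without control replicate 3 (adjusted p = 0.0537 by edgeR).

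Chac1, which degrades glutathione, was at 7.51, 2.39 and 6.05 scaled CPM in control astrocytes, 15.3, 15.5 and 9.61 with Aβ42 and 10.1, 13.4 and 12.2 with Aβ40 fibrils. It rose by 1.32 ± 0.31 and 1.14 ± 0.31 on the log2 scale, and the Aβ40 call ended without Aβ40 replicate 2 (adjusted p = 0.0519 by edgeR). Ppp1r15a, which codes for GADD34, the subunit that directs a phosphatase to eIF2α and so restarts translation, went from 136, 93.4 and 119 scaled CPM to 254, 247 and 228 with Aβ42 and 188, 231 and 201 with Aβ40 fibrils. Its rises of 1.07 ± 0.15 (adjusted p = 0.000224 by edgeR) and 0.83 ± 0.15 (adjusted p = 0.00135) were about 2.09-fold and 1.78-fold, with no overlap. Asns, asparagine synthetase, was higher with Aβ42 fibrils by 0.35 ± 0.13 at an adjusted p of 0.0494 that 5 of 6 fits without 1 library did not keep (up to 0.146 without Aβ42 replicate 2, the exception being control replicate 2), and had 0.17 ± 0.13 with Aβ40 fibrils, or 0.28 ± 0.11 without control replicate 2 (adjusted p = 0.0488). Sesn2, a sestrin of the amino acid and oxidative stress response, had 0.14 and 0.06 and passed with neither.

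Of the 14 ER chaperones and foldases, 2 were higher in astrocytes with each fibril and none was lower, a share near the 16.5% and 14.9% of all genes called higher. Without control replicate 2 the counts were 5 and 4, against 22.1% and 19.6% of all genes, Pdia3 (0.44 and 0.40) and Dnajc3 (0.33 and 0.30) being added with both fibrils and Dnajb11 (0.27) with Aβ42. The 2 called in all 9 libraries were Sdf2l1, a partner of the ER Hsp40 proteins, and Creld2, an ER-stress-inducible isomerase. Sdf2l1 was at 25.3, 21.3 and 22.4 scaled CPM in control libraries, 34.5, 35.9 and 36.0 with Aβ42 and 29.7, 32.5 and 30.6 with Aβ40 fibrils, and rose by 0.63 ± 0.13 and 0.43 ± 0.13. Creld2 rose by 0.50 ± 0.13 and 0.49 ± 0.13. The Aβ40 calls ended without Aβ40 replicate 3 for both genes, without replicate 2 for Sdf2l1 and without replicate 1 for Creld2, at adjusted p-values between 0.0545 and 0.0809.

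Hspa5, which codes for BiP, the main ER chaperone and the usual readout of the unfolded protein response, was at 949, 880 and 821 scaled CPM in control astrocytes, 872, 891 and 940 with Aβ42 and 941, 902 and 936 with Aβ40 fibrils. The 3 groups overlapped, and the log2 fold changes were 0.03 ± 0.10 and 0.07 ± 0.10. The other 11 members of the role lay between -0.53 and 0.31 over both fibrils. They were the Hsp90 of the ER (Hsp90b1, -0.11 and -0.06), the Hsp70-like Hyou1 (0.20 and 0.20), the Hsp40 proteins Dnajb9 (-0.35 and -0.53), Dnajb11 (0.14 and 0.07) and Dnajc3 (0.12 and 0.08), the lectin chaperones Calr (0.05 and 0.03) and Canx (-0.06 and -0.10), the disulfide isomerases Pdia3 (0.31 and 0.27), Pdia4 (0.03 and 0.09) and Pdia6 (0.12 and 0.15), and the secreted Manf (-0.08 and -0.07). The treated and control astrocytes overlapped for Hspa5, Hsp90b1 and Dnajc3, whose ER stress response elements are shown above, and for Dnajc3 the overlap came from control replicate 2 alone. None of the 4 genes of ER-associated degradation passed either. Herpud1, a membrane scaffold of the degradation complex, had 0.21 and 0.27, its subunits Sel1l -0.08 and -0.04 and Syvn1 (the ubiquitin ligase HRD1) 0.05 and 0.10, and the mannose-trimming Edem1 0.16 and 0.01.

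The cytosolic heat shock genes gave 1 call higher and 2 lower of 8 tested with either fibril. Of all genes, 16.5% were higher and 20.4% lower with Aβ42, and 14.9% and 18.4% with Aβ40 fibrils. Hspb1, the small heat shock protein Hsp27, was at 547, 242 and 556 scaled CPM in control astrocytes, 117, 137 and 120 with Aβ42 and 154, 133 and 164 with Aβ40 fibrils. Control replicate 2 was the lowest control library and still stood above every treated library. Hspb1 fell by 1.85 ± 0.27 on the log2 scale (adjusted p = 0.000258 by edgeR) with Aβ42 and by 1.58 ± 0.26 (adjusted p = 0.00083) with Aβ40 fibrils. Cryab, which codes for αB-crystallin, went from 72.9, 62.7 and 61.0 scaled CPM to 21.0, 22.4 and 26.1 with Aβ42 and 32.1, 29.1 and 31.6 with Aβ40 fibrils, with no overlap. The changes were -1.499 ± 0.14 and -1.08 ± 0.14. The oligodendrocyte lineage markers, from a lineage in which Cryab is also known to be expressed, summed to between 1725 and 2573 scaled CPM in the control libraries, 1272 and 1372 with Aβ42 and 1346 and 1366 with Aβ40 fibrils, and their part in the result was not tested.

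The other small heat shock protein, Hspb8, rose by 0.50 ± 0.15 and 0.49 ± 0.15 in astrocytes, and the calls were lost without any 1 of the Aβ42 libraries (adjusted p up to 0.0733) and, with Aβ40 fibrils, without control replicate 1 or Aβ40 replicate 2 or 3 (up to 0.104). Its partner Bag3, a co-chaperone that sends clients to autophagy, had -0.45 ± 0.20 and -0.49 ± 0.20 and did not pass. Without control replicate 2, Bag3 was lower with both fibrils, by -0.64 ± 0.13 (adjusted p = 0.00147 by edgeR) and -0.69 ± 0.13 (adjusted p = 0.000946). Dnajb1, Hsph1 and Hsp90aa1, inducible genes of the heat shock response, did not pass in either direction. The Hsp40 Dnajb1 had 0.29 ± 0.17 and 0.38 ± 0.17, the Hsp110 Hsph1 -0.11 and -0.07, and the inducible cytosolic Hsp90 Hsp90aa1 -0.05 and 0.03. Hspa8, the constitutive Hsp70, had 0.04 ± 0.52 and 0.60 ± 0.51 with counts between 21 and 727 per library. The values of Hspa8 are uncertain. It has near-identical copies in the rat genome between which reads can be split, and their part in this spread was not tested. Hspa1b held between 0 and 2 counts in each astrocyte library and was not tested.

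**Figure D2:**
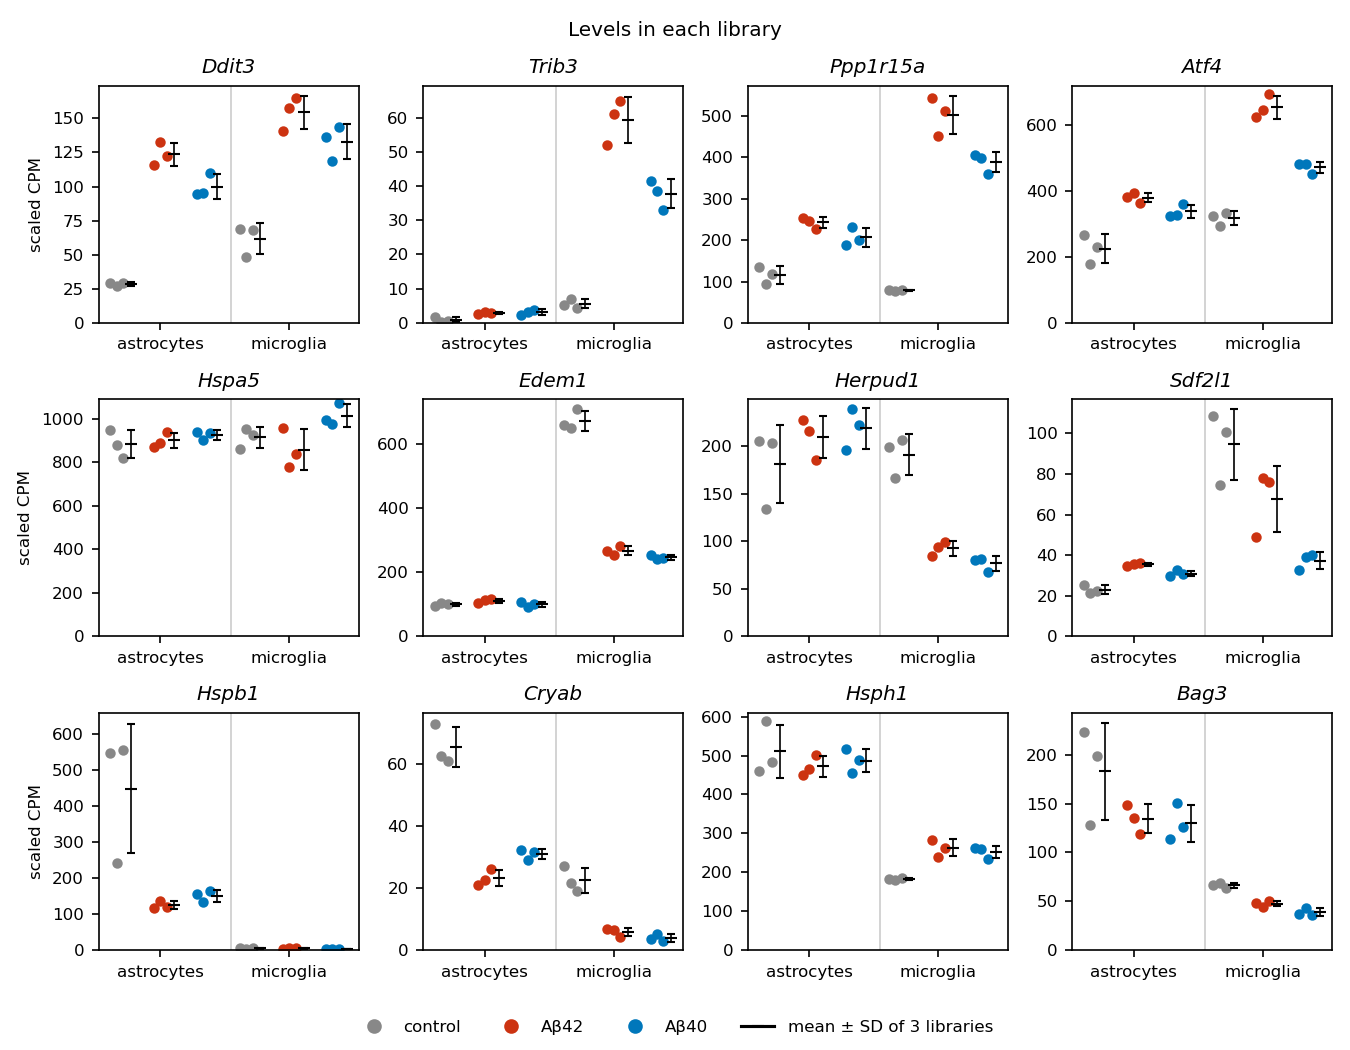
Scaled CPM (vertical axes, linear and starting at 0) of 12 members in each of the 18 libraries, with 3 points per group for control, Aβ42 and Aβ40 and the mean ± SD beside them. Ddit3, Trib3, Ppp1r15a and Atf4 stood higher in all treated libraries of both cell types, Hspa5 overlapped in astrocytes, Edem1 and Herpud1 were lower only in treated microglia, and Cryab was lower in treated libraries of both.

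No member passed the test between the fibrils in astrocytes. Between Aβ42 and Aβ40 fibrils, 0 of the 37 members were called by edgeR's quasi-likelihood test, where 0.0599% and 0.0257% of all genes were called higher and lower with Aβ42. DESeq2 also called 0 members, and 0.684% and 0.522% of all genes. At an unadjusted p under 0.05 there were 2 members, Ddit3 with a difference of 0.31 ± 0.12 and Cryab with -0.42 ± 0.14. For both genes, picked for that p-value, the Aβ42 and Aβ40 libraries stood apart without overlap. The shares of all genes at such a p-value or without overlap were not counted. All differences lay between -0.56 and 0.31, and the extreme low one was that of Hspa8, with an SE of 0.49.

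In microglia, genes of the ATF4 branch rose as well, while 7 of 14 ER chaperones with Aβ42 fibrils and most degradation genes with both fell. With Aβ42 fibrils, 8 of 37 members were higher and 14 lower, where 27.1% of all 10837 tested genes were called higher and 26.6% lower. With Aβ40 fibrils, 9 were higher and 10 lower, against 19.6% and 21.4%. These comparisons again share the control libraries. The median log2 fold change of the members was -0.13 and -0.06, and that of all genes 0.01 in both. Microglia markers summed to between 2246 and 3406 scaled CPM with Aβ42 and between 2927 and 3575 with Aβ40 fibrils, against 7743 to 8749 in control microglia. Astrocyte markers stayed between 219 and 269 in all 3 groups. Of the single microglia markers, Itgam was higher with both fibrils (0.90 and 1.04 on the log2 scale). Tmem119 had 0.11 with Aβ42 fibrils, which did not pass, and was lower with Aβ40 fibrils (-1.46). The other microglia markers were lower with both. The summed fibroblast markers went from between 55.4 and 67.8 to between 134 and 162 with Aβ42 and between 119 and 125 with Aβ40 fibrils. Dcn (7.11 and 6.998 on the log2 scale) and Lum (2.43 and 2.26) were higher with both, while Col3a1 was lower with Aβ40 fibrils (-2.33). The summed endothelial markers went from between 159 and 172 to between 34.6 and 58.8 and between 78.3 and 102.5. Flt1 was lower with both fibrils (-2.12 and -1.13), while Cdh5 was higher with Aβ40 fibrils (1.69). The part of these marker shifts in the results was not tested. Without Aβ42 replicate 1, 10 members were higher and 18 lower with Aβ42 fibrils, where 34.6% and 35.7% of all genes were called.

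Trib3 had the largest change of the 37 tested members with either fibril. Its level was 5.30, 6.95 and 4.42 scaled CPM in control microglia (45, 36 and 29 counts), 52.0, 61.0 and 65.0 with Aβ42 fibrils and 41.5, 38.7 and 33.1 with Aβ40 fibrils. The 3 groups did not overlap, and the Aβ42 libraries were the highest. The log2 fold changes were 3.45 ± 0.17 (10.9-fold, adjusted p = 1.07e-08 by edgeR) and 2.80 ± 0.18 (6.94-fold, adjusted p = 1.32e-07). Ppp1r15a went from 78.9, 77.7 and 79.3 scaled CPM to 544, 452 and 511 with Aβ42 and 407, 399 and 360 with Aβ40 fibrils, also without overlap between the 3 groups. Its log2 fold changes were 2.67 ± 0.11 and 2.31 ± 0.11, or 6.38-fold and 4.95-fold.

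Chac1 rose by 0.88 ± 0.15 with Aβ42 fibrils, and its 0.40 ± 0.16 with Aβ40 fibrils did not pass (adjusted p = 0.0701 by edgeR). Asns rose by 0.56 ± 0.11 and 0.58 ± 0.11, and Sesn2 had 0.06 and 0.12 and did not pass. Thus 4 of the 5 targets were higher with Aβ42 fibrils and 3 with Aβ40 fibrils, against 27.1% and 19.6% of all genes. None was lower, against 26.6% and 21.4%. The transcription factors above them rose with both fibrils. Atf4 was at 324, 294 and 334 scaled CPM in control microglia, 623, 645 and 693 with Aβ42 and 483, 481 and 453 with Aβ40 fibrils, a rise of 1.04 ± 0.10 and 0.57 ± 0.10. Ddit3 went from 68.8, 48.7 and 68.2 scaled CPM to 141, 157 and 165 and to 136, 119 and 143, a rise of 1.32 ± 0.14 and 1.09 ± 0.14, and Xbp1 rose by 0.37 ± 0.09 and 0.43 ± 0.09.

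The sensors went different ways in microglia. Ern1 was at 22.4, 17.8 and 26.1 scaled CPM in control libraries, 14.8, 11.8 and 9.52 with Aβ42 and 19.1, 18.3 and 20.7 with Aβ40 fibrils. It fell by 0.96 ± 0.18 on the log2 scale with Aβ42 (adjusted p = 0.000828 by edgeR), and its -0.21 ± 0.19 with Aβ40 fibrils did not pass. Atf6 showed the reverse, with 136, 129 and 149 scaled CPM in control libraries, 224, 225 and 265 with Aβ40 fibrils and 213, 128 and 138 with Aβ42 fibrils, where the high value is replicate 1. It rose by 0.78 ± 0.17 (adjusted p = 0.00298 by edgeR) with Aβ40 fibrils, and had 0.19 ± 0.17 with Aβ42 fibrils and -0.06 ± 0.09 without that replicate. Eif2ak3 was lower with both fibrils, by -0.36 ± 0.11 and -0.47 ± 0.12. The Aβ42 call ended without control replicate 3, Aβ42 replicate 2 or Aβ42 replicate 3 (adjusted p up to 0.0734) and the Aβ40 call without Aβ40 replicate 2 (adjusted p = 0.0569).

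No ER chaperone was called higher in microglia. With Aβ42 fibrils 7 of 14 fell, against 26.6% of all genes, and with Aβ40 fibrils 3 did, a share equal to the 21.4% of all genes. Sdf2l1, which rose in astrocytes, was at 108, 74.8 and 101 scaled CPM in control microglia, 32.8, 39.4 and 40.0 with Aβ40 fibrils and 48.8, 77.9 and 76.2 with Aβ42 fibrils. It fell by 1.35 ± 0.19 with Aβ40 (adjusted p = 0.000128 by edgeR). With Aβ42 fibrils the change was -0.45 ± 0.18 at an adjusted p of 0.0482, the groups overlapped, and the call ended without control replicate 1 or 3 or Aβ42 replicate 3 (adjusted p up to 0.203). Replicate 1 gave the value nearest to the Aβ40 libraries.

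Hsp90b1 went from 1093, 1150 and 1138 scaled CPM to 837, 609 and 617 with Aβ42 and 898, 856 and 893 with Aβ40 fibrils. All treated libraries were below all control libraries, and the changes were -0.72 ± 0.12 and -0.35 ± 0.12. The latter call ended without any 1 of the 6 libraries compared, at adjusted p-values up to 0.122. Dnajc3, which codes for p58IPK, an Hsp40 protein of the ER, was at 144, 140 and 137 scaled CPM in control microglia, 119, 74.8 and 77.2 with Aβ42 and 132, 126 and 148 with Aβ40 fibrils, and fell by 0.67 ± 0.16 on the log2 scale with Aβ42 fibrils. Its -0.05 ± 0.16 with Aβ40 fibrils did not pass. Calr fell by 0.65 ± 0.16 with Aβ42 fibrils and had -0.30 with Aβ40, Pdia4 fell by 0.42 ± 0.09 and had -0.16, and Pdia6 fell with both, by 0.36 ± 0.09 and 0.45 ± 0.09.

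Hyou1 was lower with Aβ42 fibrils by -0.24 ± 0.09, a call that ended without any 1 of 5 of the 6 libraries, all but Aβ42 replicate 1 (adjusted p up to 0.153), and had -0.21 with Aβ40 fibrils. Hspa5 had -0.09 ± 0.10 and 0.15 ± 0.10, with 862, 955 and 927 scaled CPM in control libraries, 960, 777 and 841 with Aβ42 and 996, 977 and 1074 with Aβ40 fibrils. The Aβ42 libraries overlapped the control libraries, and the Aβ40 libraries lay above them by less than the test required. The remaining members did not pass either, with Dnajb9 at -0.25 and -0.21, Dnajb11 at -0.26 and -0.01, Canx at -0.30 and 0.04, Pdia3 at -0.13 and -0.06, Creld2 at 0.04 and -0.05 and Manf at 0.04 and 0.18. Without Aβ42 replicate 1, 11 of the 14 were lower with Aβ42 fibrils, against 35.7% of all genes. Dnajb9, Dnajb11, Canx and Pdia3 were added, with -0.54, -0.45, -0.58 and -0.23. Of the 7 members with the ER stress response element, Hsp90b1, Calr and Dnajc3 fell with Aβ42 fibrils, Xbp1 rose, and Hspa5, Canx and Creld2 did not pass.

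Edem1, Herpud1 and Sel1l had large falls with both fibrils. Edem1 was at 660, 651 and 710 scaled CPM in control microglia, 268, 253 and 282 with Aβ42 and 256, 241 and 246 with Aβ40 fibrils. The treated libraries lay far below the control libraries and the fibrils overlapped each other. The log2 fold changes were -1.33 ± 0.09 (2.52-fold lower, adjusted p = 2.03e-07 by edgeR) and -1.44 ± 0.09 (2.72-fold lower, adjusted p = 1.35e-07). Herpud1, whose promoter held both an ER stress response element and a C/EBP-ATF response element, went from 199, 167 and 207 scaled CPM to 84.4, 94.4 and 99.7 and to 80.6, 81.6 and 68.0, and fell by 1.03 ± 0.12 and 1.31 ± 0.12. Sel1l went from 243, 237 and 250 scaled CPM to 130, 105 and 110 and to 146, 143 and 144, and fell by 1.09 ± 0.10 and 0.75 ± 0.10. Syvn1 fell by 0.39 ± 0.14 with Aβ40 fibrils, a call lost without any 1 of 5 of the 6 libraries, all but control replicate 3 (adjusted p up to 0.137), and had -0.27 ± 0.13 with Aβ42 fibrils.

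Cytosolic heat shock genes split in microglia as well, with 1 higher and 2 lower of 8 tested with Aβ42 fibrils, against 27.1% and 26.6% of all genes, and 2 higher and 2 lower with Aβ40, against 19.6% and 21.4%. Without Aβ42 replicate 1, 3 were higher with Aβ42 fibrils, where 34.6% of all genes were, Dnajb1 (0.35 ± 0.09, adjusted p = 0.002 by edgeR) and Hspb8 (0.56 ± 0.21, adjusted p = 0.0274) being added to Hsph1. Hsph1, the member with a heat shock element just before its start, went from 182, 179 and 184 scaled CPM to 284, 240 and 263 and to 262, 259 and 234, without overlap between treated and control libraries. It rose by 0.53 ± 0.10 and 0.47 ± 0.10. Hsp90aa1 rose by 0.54 ± 0.15 with Aβ40 fibrils, a call lost without Aβ40 replicate 3 (adjusted p = 0.0524 by edgeR), and had 0.30 ± 0.15 with Aβ42 fibrils. Dnajb1 had 0.25 ± 0.13 and -0.30 ± 0.14 and did not pass against control with either, and Hspa8 had 0.09 ± 0.44 and -0.38 ± 0.48.

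Cryab fell most, from 27.0, 21.4 and 18.9 scaled CPM to 6.80, 6.45 and 4.22 with Aβ42 and 3.62, 5.14 and 2.76 with Aβ40 fibrils. The log2 fold changes were -2.02 ± 0.22 and -2.48 ± 0.27, from between 6 and 149 counts per treated library. Oligodendrocyte lineage markers summed to between 1963 and 2167 in these control libraries and between 2180 and 2833 in the treated ones. Bag3 went from 67.0, 68.2 and 63.5 scaled CPM to 48.4, 44.4 and 49.7 and to 36.4, 43.2 and 35.9, and fell by 0.48 ± 0.11 and 0.77 ± 0.12. The other small heat shock genes were low in microglia, Hspb1 between 1.38 and 5.95 and Hspb8 between 3.22 and 6.76 scaled CPM, with changes of 0.18 and -0.81 for Hspb1 and 0.47 and 0.21 for Hspb8 that did not pass.

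Hspa1b was left untested by the filter, and its counts in microglia were 1, 1 and 1 in the control libraries, 2, 28 and 29 with Aβ42 fibrils and 4, 1 and 2 with Aβ40 fibrils. The 2 libraries with counts above the rest were also the deepest, and stood at 1.21 and 1.65 scaled CPM, while the detection limit of 3 counts lay between 0.364 and 0.588 CPM in the control libraries. The near-identical Hspa1a shares its sequence, so reads may be split between them.

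A direct test between the fibrils called 10 members in microglia, 6 higher and 4 lower with Aβ42, where 11.3% and 9.01% of all genes were called. Atf4 (0.47 ± 0.10), Trib3 (0.65 ± 0.15), Ppp1r15a (0.37 ± 0.10), Chac1 (0.48 ± 0.16), Sdf2l1 (0.90 ± 0.19) and Dnajb1 (0.54 ± 0.14) were higher with Aβ42 fibrils. Ern1 (-0.75 ± 0.20), Atf6 (-0.59 ± 0.17), Dnajc3 (-0.61 ± 0.16) and Sel1l (-0.34 ± 0.10) were lower, at adjusted p-values between 0.0154 and 0.0499 over the 10 genes by edgeR. For each of these genes, picked by that test, all Aβ42 libraries lay on one side of all Aβ40 libraries. The share of all genes without overlap was not counted.

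This result rests on single libraries. Without Aβ42 replicate 1, the library that was closer to the Aβ40 libraries, 10 members were higher and 12 lower, where 27.1% and 26.8% of all genes were called. Without any 1 of the other 5 fibril libraries, or when only the fibril groups were fitted, 0 were called in either direction. Calls over all genes were then few as well, between 0.566% and 0.755% higher and between 0.265% and 0.628% lower. The added members without replicate 1 were the chaperones Hspa5 (-0.33), Hsp90b1 (-0.53), Calr (-0.60), Canx (-0.62), Dnajb11 (-0.44), Dnajb9 (-0.32) and Pdia4 (-0.31) and the Hsp90 Hsp90aa1 (-0.39), all lower with Aβ42, and Ddit3 (0.29), Herpud1 (0.32), Hspb1 (1.09) and Bag3 (0.27), all higher. Replicate 1 also has the fewest counts of its group, and whether depth or the sample itself sets its position was not tested.

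**Figure D3:**
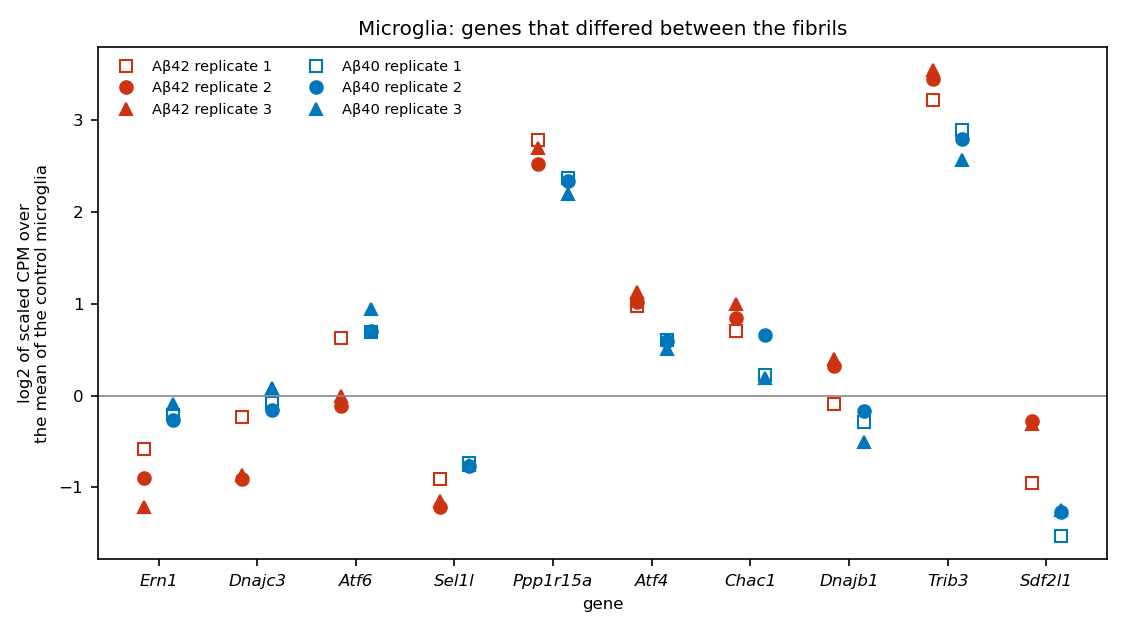
Log2 of the scaled CPM of each fibril-treated microglia library over the mean of the 3 control libraries (vertical axis, with 0 at the control mean), for the 10 members that differed between the fibrils. Open squares are replicate 1. For Dnajc3, Atf6 and Sdf2l1 the Aβ42 replicate 1 lies between the other Aβ42 libraries and the Aβ40 libraries, or beside the latter.

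The responses of the cell types differed for many members when the difference itself was tested, by an interaction term in the fit of all 18 libraries. For Aβ42 fibrils 18 of 37 members were called. The change was higher in astrocytes than in microglia for 14 and lower for 4, where 17.9% and 19.3% of all 11581 genes were called. For Aβ40 fibrils 10 were higher and 3 lower in astrocytes, against 16.5% and 16% of all genes. Of the 14 ER chaperones, 9 differed for Aβ42 and 4 for Aβ40 fibrils, all with the higher change in astrocytes. The degradation genes Edem1, Herpud1 and Sel1l differed for both fibrils, by 1.499 ± 0.15, 1.25 ± 0.21 and 1.01 ± 0.16 for Aβ42 and 1.47 ± 0.15, 1.60 ± 0.22 and 0.73 ± 0.16 for Aβ40 fibrils.

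Within the ATF4 branch the cell types differed gene by gene. Ddit3 rose more in astrocytes, by 0.80 ± 0.19 and 0.73 ± 0.19 on the log2 scale, and Ppp1r15a rose more in microglia, with differences of -1.60 ± 0.18 and -1.46 ± 0.18. For Atf4 the differences of -0.28 ± 0.17 and 0.03 ± 0.17 did not pass. Trib3 differed for Aβ42 fibrils by -1.60 ± 0.50 (adjusted p = 0.0171 by edgeR), a call lost without astrocyte control replicate 1 or 3 (adjusted p up to 0.0768), and had -0.76 ± 0.49 for Aβ40 fibrils, which did not pass. Hspb1 differed for Aβ42 fibrils by -2.02 ± 0.41, and Cryab for Aβ40 fibrils by 1.42 ± 0.30. Hsph1 differed for both, by -0.63 ± 0.16 and -0.52 ± 0.16.

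**Figure D4:**
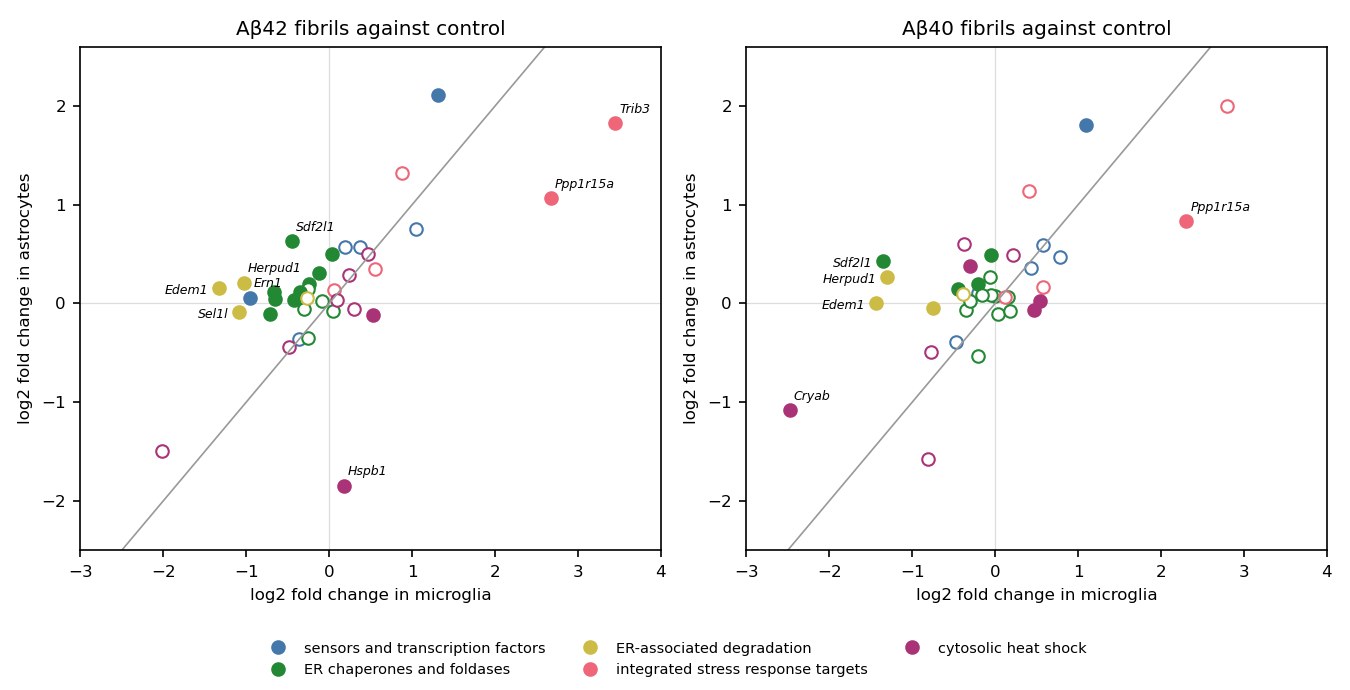
Log2 fold change against control in microglia (horizontal axis) and astrocytes (vertical axis) of the 37 tested members, for Aβ42 (left) and Aβ40 fibrils (right), colored by role. Filled points are members whose change differed between the cell types in edgeR's interaction test, named where the plotted values are more than 0.8 apart, and the line marks equal changes. Edem1, Herpud1 and Sel1l (not named on the right) lie left of 0 and near 0 on the vertical axis, and Ppp1r15a lies far right of the line.

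The untreated cells already differed. In the fit of all 18 libraries, 7 members were higher and 22 lower in control astrocytes than in control microglia, where 34.5% and 34.2% of all genes were called. The members higher in astrocytes were mostly of the cytosolic heat shock role. Hspb1 was higher by 6.33 ± 0.32 on the log2 scale (80.4-fold) and Hspb8 by 4.32 ± 0.21 (20.0-fold), followed by Cryab (1.28 ± 0.18), Hsph1 (1.24 ± 0.11), Bag3 (1.22 ± 0.17), Creld2 (0.93 ± 0.13) and Ppp1r15a (0.31 ± 0.13). Lower in astrocytes were Trib3 (-3.04 ± 0.36), Edem1 (-3.003 ± 0.11), Sdf2l1 (-2.30 ± 0.18), Hspa8 (-2.03 ± 0.55), Atf6 (-1.81 ± 0.22), Chac1 (-1.74 ± 0.27), Ern1 (-1.66 ± 0.17), Ddit3 (-1.37 ± 0.14), Dnajc3 (-1.24 ± 0.16) and Dnajb11 (-1.002 ± 0.13), with 12 more between -0.76 and -0.29. The control libraries of the cell types overlapped for Ppp1r15a and Hsp90aa1. The tables of the cell types list different genes, and whether the cell types were prepared or sequenced together is not stated in the sources used here. Scaling by library totals instead raised the median of all genes by 0.28, turned the split of all genes into 43.6% higher and 26.1% lower, and gave 9 members higher and 15 lower.

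Other genes of the same pathways were counted from lists that do not hold the members. Of 33 other genes of ER folding and degradation tested in astrocytes, 6 were higher and 1 lower with Aβ42 fibrils, and 6 higher and 0 lower with Aβ40, shares of higher genes near the 16.5% and 14.9% of all genes and of lower genes under the 20.4% and 18.4%. The largest rises were those of Selenos, an ER membrane protein of the degradation pathway (0.73 ± 0.11 with Aβ42), and Uggt1, the folding sensor of glycoproteins (0.69 ± 0.13 with Aβ40), and Sil1, an exchange factor for BiP, fell (-0.47 ± 0.14 with Aβ42). In microglia 31 were tested, with 4 higher and 11 lower for Aβ42, against 27.1% and 26.6% of all genes, and 3 higher and 6 lower for Aβ40 fibrils, against 19.6% and 21.4%. The mannosidases Edem3 (-1.24 ± 0.15 with Aβ42) and Edem2 (-0.88 ± 0.25 with Aβ40) fell most, and Nploc4, a cofactor of the ATPase p97, and the disulfide isomerase P4hb rose most (0.71 ± 0.10 with Aβ42 and 0.57 ± 0.09 with Aβ40).

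Of the 27 other integrated stress response genes tested in astrocytes, 7 were higher and 3 lower with Aβ42 and 5 higher and 4 lower with Aβ40 fibrils, against 16.5% and 20.4%, and 14.9% and 18.4%, of all genes. Eif2ak2, the kinase PKR that senses double-stranded RNA, rose from 102 ± 26.4 scaled CPM (SD, n = 3) to 353 ± 24.0 and 363 ± 17.3, by 1.79 ± 0.17 and 1.83 ± 0.17 on the log2 scale. Stc2, a secreted glycoprotein (-2.43 ± 0.29 with Aβ42), and Psat1, an enzyme of serine synthesis (-1.48 ± 0.16 with Aβ40), had the largest falls. Stc2 was low, at 0.592 scaled CPM with Aβ42 fibrils and 3.08 in control libraries. In microglia, of 24 tested, 12 were higher and 2 lower with Aβ42 and 7 higher and 3 lower with Aβ40 fibrils, against 27.1% and 26.6%, and 19.6% and 21.4%, of all genes. Slc7a11, the cystine transporter, went from 9.34 ± 2.01 scaled CPM (SD, n = 3) to 783 ± 229 and 688 ± 55.2, by 6.38 ± 0.24 and 6.20 ± 0.24, and Vldlr, a lipoprotein receptor, fell by 1.40 ± 0.13 and 1.64 ± 0.14.

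Of the 44 other heat shock and cytosolic chaperone genes, 42 were tested in astrocytes. There, 2 were higher and 5 lower with Aβ42, against 16.5% and 20.4% of all genes, and 2 higher and 4 lower with Aβ40 fibrils, against 14.9% and 18.4%. The largest changes were those of the chaperonin subunit Cct4 (0.40 ± 0.13) and the small heat shock gene Hspb2 (-1.98 ± 0.60) with Aβ42, and of the Hsp110 gene Hspa4l (0.54 ± 0.12) and the Hsp70 gene Hspa1l (-1.43 ± 0.27) with Aβ40 fibrils. In microglia, 9 of 40 were higher and 7 lower with Aβ42, against 27.1% and 26.6% of all genes, and 10 higher and 4 lower with Aβ40, against 19.6% and 21.4%. Hspa4l rose most with both fibrils (1.95 ± 0.16 and 1.55 ± 0.16) and the small heat shock gene Hspb6 fell most (-1.99 ± 0.20 and -0.97 ± 0.20). No test of a list as a whole was made.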

How the data were processed

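The authors aligned the reads (paired, 150 cycles, TruSeq Stranded mRNA) to the rat assembly rn5 with STAR, quantified genes with Salmon and obtained the gene counts through DESeq2, by their methods. The strand setting is not given in the sources used here. Each of the 18 deposited tables holds raw counts of reads per gene symbol, not normalized. Reads counted as lying in no gene or as ambiguous were left out. Together they were between 26.0% and 34.2% of the counted reads in astrocytes and between 21.7% and 24.5% in microglia. The members, the other lists and the tests were chosen with earlier results of these data known. The groups were taken from the sample labels.

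The counts were analysed with edgeR 4.0.16 in R 4.3.3. Within each cell type, 9 libraries were scaled by TMM, filtered by filterByExpr and fitted together by glmQLFit, without covariates. Each comparison was a glmQLFTest contrast, with p-values adjusted after Benjamini and Hochberg across every gene tested. Cell types were compared in 1 fit of 18 libraries, on genes listed in both. For 1 gene alone, 3 libraries against 3 allow no exact permutation p-value under 0.1, and the p-values rest on the spread that edgeR shares across genes. The code was tested on simulated data. The alternatives were DESeq2 1.42.0, its size factors, library totals, no filter, at least 10 counts in every library, the replicate number as a block, a fit of only the 2 groups compared, and leaving out each library. Every member is named, and of each other list the called genes with the largest rise and fall against control. Promoters were read from RefSeq sequences of GRCr8, and no coordinates of rn5 were used. Motifs were searched on both strands.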

Additional observations from a re-analysis of the deposited data

Results flagged for a closer look

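The response to a fibril differed between astrocytes and microglia for the members below, by a test of the difference itself (edgeR's interaction of cell type and treatment, adjusted over all 11581 genes, 3 libraries per group). For Aβ42 fibrils the log2 fold change in astrocytes minus that in microglia was above 0 for Edem1 (1.499), Herpud1 (1.25), Sdf2l1 (1.09), Sel1l (1.01), Ern1 (1.01), Ddit3 (0.80), Dnajc3 (0.79), Calr (0.71), Hsp90b1 (0.62), Pdia6 (0.48), Creld2 (0.47), Pdia4 (0.46), Hyou1 (0.45) and Pdia3 (0.44), and below 0 for Hspb1 (-2.02), Trib3 (-1.60), Ppp1r15a (-1.60) and Hsph1 (-0.63). The adjusted p-values ranged from 1.92e-07 to 0.0429. For Aβ40 fibrils the log2 fold change in astrocytes minus that in microglia was above 0 for Sdf2l1 (1.80), Herpud1 (1.60), Edem1 (1.47), Cryab (1.42), Ddit3 (0.73), Sel1l (0.73), Dnajb1 (0.70), Pdia6 (0.61), Creld2 (0.56) and Hyou1 (0.43), and below 0 for Ppp1r15a (-1.46), Hsph1 (-0.52) and Hsp90aa1 (-0.50). The adjusted p-values ranged from 3.2e-07 to 0.0496. The calls of Pdia3 and Creld2 for Aβ42 fibrils and of Hsp90aa1 for Aβ40 fibrils were lost without 1 library in 9, 9 and 10 of 12 such fits, at adjusted p-values up to 0.117, 0.0953 and 0.143. Those of Hyou1 and Creld2 for Aβ40 fibrils were lost in 4 of 12 each. The Aβ42 calls of Trib3 and Pdia6 ended without astrocyte control replicate 1 or 3 and without astrocyte Aβ42 replicate 1, and the Aβ40 call of Dnajb1 without microglia control or Aβ40 replicate 3, at adjusted p-values up to 0.0768, 0.0502 and 0.0687. The summed microglia markers were below their control range in all treated microglia libraries, though Itgam was higher with both fibrils. The part of the markers in these differences was not tested. Groups of 3 libraries are too small for a test of single outlying libraries.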

How the results depend on the processing

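The members called against control moved in the same direction under every alternative tried. Of 12 calls in astrocytes with each fibril, 9 with Aβ42 and 6 with Aβ40 stayed past the threshold in every fit, and in microglia 19 of 22 and 15 of 19 did. Between the fibrils in microglia, 0 of 10 did. With only the 2 groups compared in the fit, 5 members were higher with Aβ40 fibrils in astrocytes, against 11.4% of all genes. Between the fibrils in microglia, 0 were then higher and 0 lower, against 0.566% and 0.451%. With at least 10 counts in every library, 4 members were higher in untreated astrocytes than in microglia, since Hspb1, Hspb8 and Cryab were then not tested. The replicate numbers did not pair the samples, with correlations of same-numbered libraries' deviations from their group means of -0.64 to 0.44 in astrocytes and -0.22 to 0.26 in microglia, and not every library correlated best with its own number. The replicate block lowered the calls between the fibrils in microglia to 3 higher and 1 lower, against 3.69% and 3.25% of all genes. That block moved no other count of members by over 1.5 times. When 1 library was left out, the members higher with Aβ40 in astrocytes ranged from 5 to 13, against 11.2% to 19.6% of all genes. Between the fibrils in microglia the members ranged from 0 to 10 higher and from 0 to 12 lower. The shares of all genes there ranged from 0.62% to 27.1% and from 0.265% to 26.8%. Causes were not tested.

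Against control, direction changed only for members that were not called. With library totals these were, in astrocytes with Aβ42 fibrils, Hspa5 (-0.0218), Calr (-9e-04), Pdia4 (-0.02) and Hspa8 (-0.0131), and with Aβ40 fibrils, Calr (-0.0137), Edem1 (-0.0427) and Hsp90aa1 (-0.0233). In microglia with Aβ40 fibrils, Dnajb11 had 0.0080 with DESeq2 and 0.0079 with its size factors. Over the fits without 1 library, the log2 ranges that crossed 0 in astrocytes with Aβ42 fibrils were Hspa5 -0.0218 to 0.0999, Dnajb9 -0.60 to 0.0301, Calr -0.0344 to 0.21, Canx -0.13 to 0.0741, Manf -0.20 to 0.0493, Sel1l -0.14 to 0.0274, Syvn1 -0.18 to 0.26, Hspa8 -0.35 to 0.82, Hsph1 -0.16 to 0.0116 and Hsp90aa1 -0.12 to 0.0426. Over the fits without 1 library, the log2 ranges that crossed 0 in astrocytes with Aβ40 fibrils were Dnajb11 -0.0019 to 0.19, Dnajc3 -0.03 to 0.30, Calr -0.0524 to 0.18, Canx -0.18 to 0.0267, Manf -0.19 to 0.0495, Sel1l -0.0957 to 0.0684, Syvn1 -0.14 to 0.30, Edem1 -0.0482 to 0.072, Sesn2 -0.0618 to 0.18, Hsph1 -0.13 to 0.0547 and Hsp90aa1 -0.0433 to 0.12. Over the fits without 1 library, the log2 ranges that crossed 0 in microglia with Aβ42 fibrils were Atf6 -0.0602 to 0.33, Creld2 -0.0288 to 0.0904, Manf -0.0869 to 0.14 and Hspa8 -0.22 to 0.74. Over the fits without 1 library, the log2 ranges that crossed 0 in microglia with Aβ40 fibrils were Dnajb11 -0.0578 to 0.0601, Canx -0.0251 to 0.0722, Creld2 -0.0747 to 0.0024, Sesn2 -0.11 to 0.27, Hspa8 -0.82 to 0.29 and Hspb8 -0.0874 to 0.36. Depth limits Trib3 in astrocytes, Cryab, Hspb1 and Hspb8 in microglia and Hspa1b throughout, whose counts were low.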

Other observations

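Among 30 other genes of ER folding and degradation tested in both cell types, the change was higher in astrocytes than in microglia for 6 with Aβ42 and 5 with Aβ40 fibrils and lower for 0 with either, by edgeR's interaction test, where 17.9% and 16.5% of all genes were higher and 19.3% and 16% lower. Unadjusted p-values under 0.05 were found for 8 and 10 of the 30 in either direction, and the share of all genes at such a p-value was not counted. The 27 other integrated stress response genes went both ways, with 5 higher and 7 lower for either fibril.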
